A study of Mus musculus with 15 samples.

Results

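The 10 mouse genes described here are Dip2c, Fam3b, Zxdb, Ak3, Zfp575, Pard6b, Pitpnm2, Nln, Bhlhb9 and Ppp1r3e, out of 18075 genes listed in the tables of untreated leukemic bone marrow. They were chosen by their normalized counts in those tables, for a large difference between 36N and 36S leukemias before temozolomide (TMZ) that was absent between 36N and 36S cells with TMZ. The values in those 2 comparisons, and in the comparison of 36N cells with and without TMZ that shares their libraries, are therefore given as descriptions without a test. The level of each gene in KD leukemias did not enter the choice.

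RNA sequencing was done on total bone marrow cells of leukemic mice in 5 groups of 3 libraries: 36N with TMZ, 36S with TMZ, untreated 36N, untreated KD and untreated 36S. All leukemias were made on the C57BL/6 strain by retroviral transfer of the MLL-AF9 fusion oncogene, together with a GFP reporter, into lineage-depleted cells, followed by serial transplantation into irradiated mice, and marrow of the quaternary recipients was used. The donor cells were homozygous at the Gfi1 locus, as GFI1 36N/36N (36N, the variant form of human GFI1), as GFI1 KD/KD (KD, human GFI1 at a reduced level), or as GFI1 KI/KI (36S, human GFI1 knocked into the mouse locus). TMZ cells were leukemic marrow cells treated with 50 µg/ml TMZ for 20 h before RNA isolation. Marrow was not sorted before RNA isolation as far as the labels say, so cells of the irradiated recipient may be included. The labels do not state whether the 3 libraries of a group came from separate mice, so that p-values measure only the spread between these libraries.

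GFI1 is a zinc finger repressor of haematopoietic cells that recruits histone-modifying enzymes to DNA sites with an AATC core, and its 36N and 36S forms differ in a single amino acid. MLL-AF9 is a fusion protein that drives acute myeloid leukemia. TMZ is a cytotoxic drug that adds methyl groups to DNA. The 10 genes belong to no single pathway. Zxdb and Zfp575 encode zinc finger proteins. Pard6b encodes a scaffold of the PAR cell polarity complex, Pitpnm2 a membrane-associated phosphatidylinositol transfer protein, and Dip2c a member of the disco-interacting protein family. Ak3 encodes the GTP:AMP phosphotransferase of the mitochondrial matrix, and Ppp1r3e a subunit that targets protein phosphatase 1 to glycogen. Fam3b encodes a secreted cytokine-like protein, Nln (neurolysin) a metallopeptidase that cleaves neurotensin, and Bhlhb9 an armadillo-repeat protein of the family that sorts G protein-coupled receptors.

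Because GFI1 recognises AATC, the promoters were searched for it. RefSeq promoter sequences (build GRCm38.p6, 250 bases before to 50 bases after the start) were matched by symbol for 7 of the 10 genes, with 8 promoters in all since Pitpnm2 has 2. Fam3b, Zfp575 and Ppp1r3e had no entry. The 250 bases before the start are printed, 5′ to 3′ on the strand of the gene, for Zxdb and Pard6b, which were low in untreated 36N and hold 2 matches each, for Bhlhb9, which was high in untreated 36N and holds 1, and for Dip2c, which was low and holds 0. Of the promoters not printed, those of Pitpnm2, which was high in untreated 36N, hold 2 and 0. Those of Ak3 and Nln, which were low, hold 1 and 0. Capitals mark AATC or its reverse complement GATT.
Zxdb, chrX:94724319-94724568, + strand: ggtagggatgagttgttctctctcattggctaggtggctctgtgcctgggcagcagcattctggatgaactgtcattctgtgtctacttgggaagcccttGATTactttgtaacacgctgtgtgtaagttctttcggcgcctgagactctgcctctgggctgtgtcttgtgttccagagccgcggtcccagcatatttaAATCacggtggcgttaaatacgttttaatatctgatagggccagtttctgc
Pard6b, chr2:168080754-168081003, + strand: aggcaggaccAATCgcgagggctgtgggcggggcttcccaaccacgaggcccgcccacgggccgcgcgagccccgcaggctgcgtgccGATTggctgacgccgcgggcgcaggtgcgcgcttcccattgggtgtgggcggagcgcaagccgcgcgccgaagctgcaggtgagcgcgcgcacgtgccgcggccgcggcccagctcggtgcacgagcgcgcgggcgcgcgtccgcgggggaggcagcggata
Bhlhb9, chrX:135885601-135885850, + strand: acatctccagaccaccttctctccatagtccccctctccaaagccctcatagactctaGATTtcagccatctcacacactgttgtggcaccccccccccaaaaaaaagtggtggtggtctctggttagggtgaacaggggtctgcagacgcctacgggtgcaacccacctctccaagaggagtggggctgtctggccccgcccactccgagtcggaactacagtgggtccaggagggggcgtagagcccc
Dip2c, chr13:9276275-9276524, + strand: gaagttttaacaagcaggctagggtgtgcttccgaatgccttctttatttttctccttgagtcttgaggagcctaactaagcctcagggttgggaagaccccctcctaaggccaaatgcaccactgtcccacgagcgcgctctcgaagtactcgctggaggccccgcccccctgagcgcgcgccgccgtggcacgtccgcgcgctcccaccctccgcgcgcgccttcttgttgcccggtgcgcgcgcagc
AATC was found on either strand in 5 of the 8 promoters, against 73.1% of 32841 RefSeq mouse promoters of the same 300 bases. The longer match AAATCA, which contains AATC, was found on either strand in 1 of the 8, that of Zxdb, against 14.0% of all. The 8 promoters held 11 to 53 CG dinucleotides, with a median of 25.5, against a median of 7 over all promoters. These matches describe letters in a window and are not binding sites.

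Several facts of the libraries bear on the values. The deposited normalized counts are not per gene length, so that levels are compared here only within a gene. The TMZ libraries stood far from the untreated ones: across 14390 genes Pearson's r was 0.641 to 0.683 between 36N with TMZ and untreated 36N, against 0.965 to 0.979 within these groups. In the same table the summed level of 8 mast cell, basophil and eosinophil genes was 77143 to 194862 in 36N with TMZ and 532 to 1510 in untreated 36N, that of 7 megakaryocyte and platelet genes was 30460 to 58534 and 207 to 423, and that of 9 B and plasma cell genes was 227 to 512 and 8780 to 15108. The summed level of 11 T and NK cell genes was 6368 to 9042 in 36N with TMZ and 372 to 504 in untreated 36N, although 4 to 5 of the 11, among them Cd3e, were at 0 in each TMZ library. The Y-linked gene Ddx3y was at 0 in library 5 of 36N with TMZ and in library 2 of 36S with TMZ, and above 0 in the other 4, whereas untreated 36N library 5 had 649 and untreated 36S library 2 had 551, so that these 2 TMZ libraries do not match the untreated libraries of the same number. TMZ libraries also resembled each other across genotype in pairs: 36N 4 with 36S 1, 36N 5 with 36S 2, and 36N 6 with 36S 3 had correlated deviations from their group means (0.392, 0.447 and 0.348), while the other pairs had -0.124 to -0.236. What part these differences have in the results below was not tested, and in bulk marrow fewer cells of a type and less RNA per cell cannot be told apart. The level of Gfi1 itself in the untreated tables was not analysed here, so the KD label was not checked against it.

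Before TMZ, 8 of the 10 genes were lower and 2, Pitpnm2 and Bhlhb9, were higher in 36N than in 36S. All 10 passed the filter on low values (a normalized count of at least 10 in at least 3 of the libraries compared). Where a gene passed it only through the group in which it was high, its difference is given without a p. All 10 had groups without overlap, beside 26.9% of 13137 genes tested (13.8% lower in 36N and 13.1% higher), of which 4.56% passed an adjusted p of 0.05. Nothing is read from these counts, since this contrast chose the genes. KD leukemias gave values that the choice had not used. They did not follow a single course: KD lay on the side of 36N for Pard6b, Fam3b, Ak3, Pitpnm2 and Bhlhb9, between 36N and 36S for Zxdb, Dip2c and Nln, and overlapped with 36S for Ppp1r3e and Zfp575. The 36N and 36S libraries set beside KD also served to choose the genes, for a large difference between them. The p-values of KD against either group below are therefore partly fixed by the choice.

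**Figure D1:**
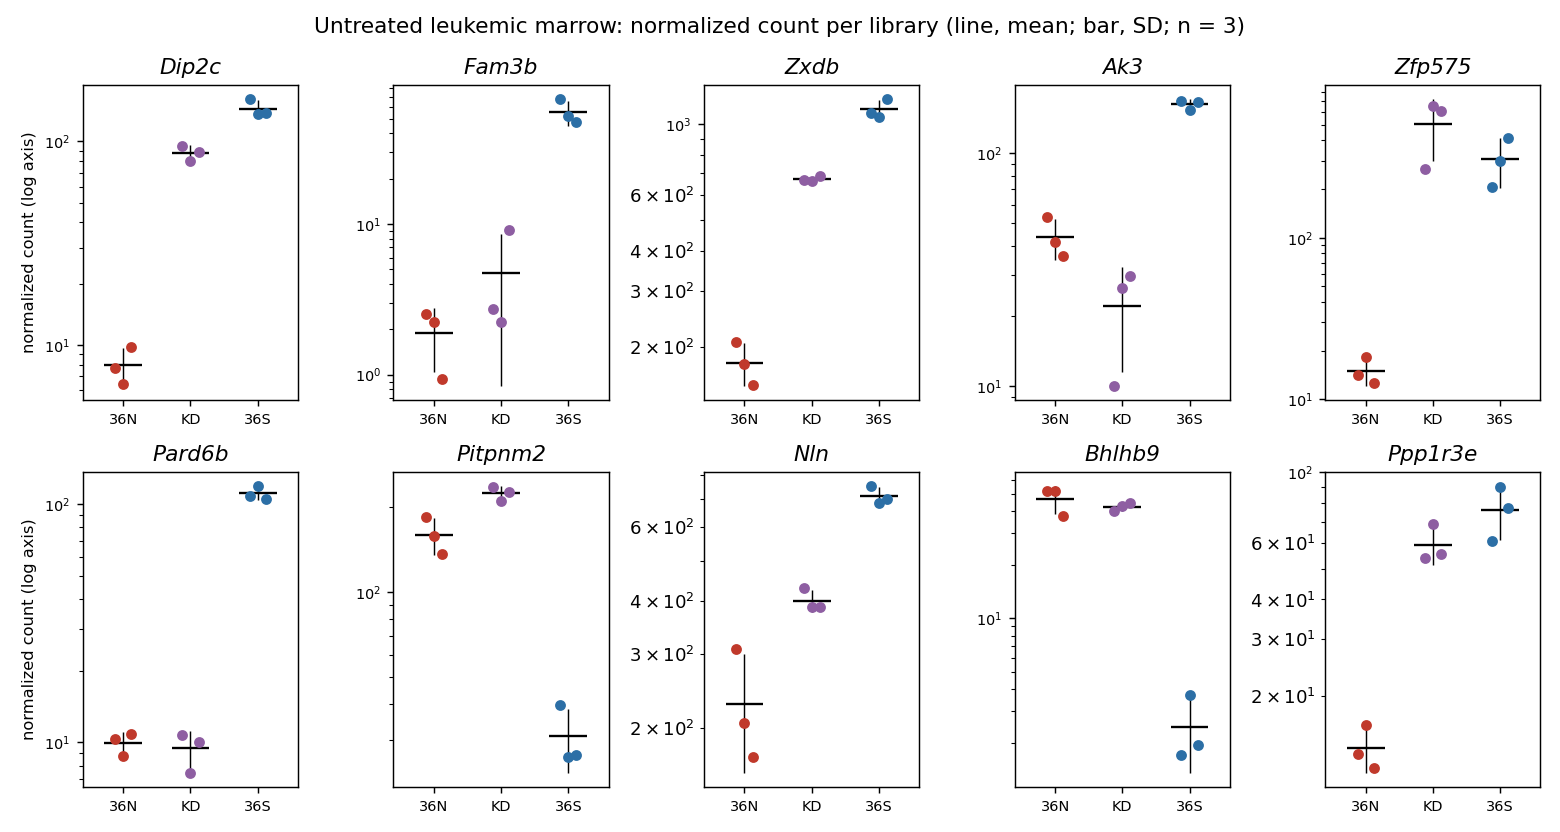
Normalized count (log axis) of each gene in the 3 untreated libraries of 36N, KD and 36S, with the mean as a line and the SD as a bar. Pard6b is at most 10.8 in 36N and KD and at least 105 in 36S, whereas Zfp575 is at most 18.3 in 36N and at least 207 in KD and 36S.

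Of the zinc finger genes, Zxdb had 208, 177 and 153 normalized counts in 36N libraries, against 1085, 1053 and 1195 in 36S libraries. Every 36N library was far below every 36S library, a log2 fold change of -2.64 (SE 0.15). In KD it had 668, 663 and 686, which lay between the other groups without overlap. KD was lower than 36S by a log2 fold change of -0.72 (SE 0.12, adjusted p 0.0057) and higher than 36N by 1.92 (SE 0.16, adjusted p 0.00021, both limma-trend with Benjamini-Hochberg adjustment). Its X-linked near copy Zxda, which may share reads with it, had 74.0, 0 and 0 in 36N, 169.9 to 182 in KD and 181 to 247 in 36S. Zfp575 had 14.2, 18.3 and 12.7 in 36N, against 207, 299 and 416 in 36S, without overlap (-4.22, SE 0.30). In KD it had 267, 649 and 609.9, which overlapped with 36S (log2 fold change 0.68, SE 0.35, adjusted p 0.26). Library 7 was the low one of the KD group, and without it KD was higher than 36S by 1.09 (adjusted p 0.048). Against 36N, KD was higher by 4.90 (SE 0.35, adjusted p 5.6e-05). Ethe1, a mitochondrial sulfur dioxygenase gene that overlaps Zfp575 on the opposite strand by 99 bases, averaged 731 ± 166 in KD and 433 ± 88.2 in 36S (SD, n = 3 each; adjusted p 0.045 by limma-trend). It averaged 424 ± 73.2 in 36N, and whether the counting used strand is not given in the sources used here.

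Of the genes of polarity and membranes, Pard6b had 10.3, 8.74 and 10.8 normalized counts in 36N, against 108, 119 and 105 in 36S, a log2 fold change of -3.35 (SE 0.28). In KD it had 10.8, 7.48 and 10.1, so that KD and 36N overlapped and both lay far below every 36S library. KD was lower than 36S by -3.43 on the log2 scale (SE 0.30) and differed from 36N by -0.08 (SE 0.51, adjusted p 0.95 by limma-trend), a difference that lay between -0.17 and 0.065 when 1 library was left out (0.065 without KD library 8). Pitpnm2 had 184, 158 and 137 in 36N, against 39.9, 25.98 and 26.5 in 36S (2.35, SE 0.26). It had 237, 210.1 and 227 in KD, above every 36N and every 36S library. KD was higher than 36S by 2.85 (SE 0.24, adjusted p 0.00018), and its difference from 36N of 0.50 (SE 0.19, adjusted p 0.19) did not pass the threshold. Dip2c had 7.66, 6.45 and 9.72 in 36N, against 161, 136 and 138 in 36S (-4.04, SE 0.29). In KD it had 95.0, 80.2 and 88.8, below every 36S library and far above every 36N library. KD was higher than 36N by 3.33 (SE 0.35). Its difference from 36S, -0.71 (SE 0.20, adjusted p 0.046), passed the threshold narrowly and did not pass it when any 1 of the 6 libraries was left out (adjusted p 0.067 to 0.14) or with no filter on low values (0.064).

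Of the metabolic genes, Ak3 had 53.2, 41.6 and 36.1 normalized counts in 36N, against 168, 154 and 167 in 36S (-1.89, SE 0.22). It had 10.0, 26.5 and 29.6 in KD, lower than every library of both other groups. KD was lower than 36S by -2.96 on the log2 scale (SE 0.38, adjusted p 0.0016), and its difference from 36N of -1.07 (SE 0.44, adjusted p 0.23) did not pass. Cdc37l1, a cochaperone gene that overlaps Ak3 on the opposite strand by 5849 bases, differed by -0.10 (adjusted p 0.72) in 36N and by -0.49 (adjusted p 0.16) in KD against 36S. Ppp1r3e had 13.1, 16.1 and 11.8 in 36N, against 61.0, 89.9 and 77.4 in 36S (-2.38, SE 0.31). In KD it had 53.8, 68.8 and 55.6, which overlapped with 36S (-0.34, SE 0.25, adjusted p 0.44). KD was higher than 36N by 2.04 (SE 0.34, adjusted p 0.011), and without KD library 9 the adjusted p was 0.056.

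Of the genes for secreted, peptide-cleaving and receptor-sorting proteins, Fam3b had 2.54, 2.23 and 0.932 normalized counts in 36N, against 67.5, 52.2 and 47.4 in 36S (-4.32, SE 0.45). It had 2.71, 2.25 and 9.16 in KD, of which library 9 was the highest and still below every 36S library. KD was lower than 36S by -3.50 on the log2 scale (SE 0.52). Fam3b failed the filter for KD against 36N and has no test there. Nln had 309, 206 and 171 in 36N, against 752, 685 and 699.9 in 36S (-1.68, SE 0.20). In KD it had 430.1, 387 and 388, between the other groups without overlap. KD was lower than 36S by -0.82 (SE 0.13, adjusted p 0.0042), and its difference from 36N of 0.85 (SE 0.22, adjusted p 0.066) passed only without 36N library 4 (0.024) or KD library 8 (0.047). Bhlhb9 had 52.0, 51.6 and 37.4 in 36N, against 1.70, 3.71 and 1.95 in 36S (3.83, SE 0.45). It had 39.8, 42.8 and 44.5 in KD, within the range of 36N. KD was higher than 36S by 3.69 (SE 0.47) and differed from 36N by -0.13 (SE 0.29, adjusted p 0.84). Gprasp1, a paralog that overlaps Bhlhb9 on the same strand by 5881 bases, averaged 188 ± 28.3 in 36N, 165 ± 23.6 in KD and 207 ± 19.1 in 36S (SD, n = 3 each).

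**Figure D2:**
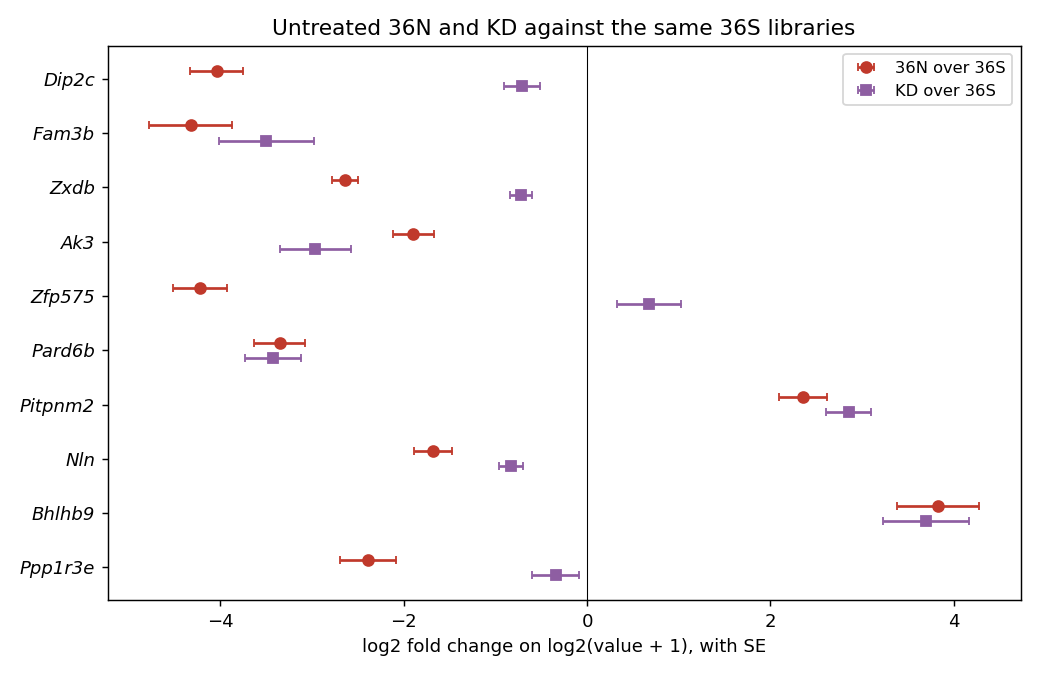
Log2 fold change with its SE, on log2(normalized count + 1), of untreated 36N over 36S (circles) and untreated KD over the same 36S libraries (squares). The marks nearly coincide for Pard6b and Bhlhb9 and lie on opposite sides of 0 for Zfp575, at -4.22 and 0.68.

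Over the genes, 3 passed the filter in KD against 36S only through the group in which they were high (Fam3b and Pard6b in 36S, Bhlhb9 in KD) and are not counted. Of the other 7, 5 passed the threshold in KD against 36S, with Zxdb, Ak3, Nln and Dip2c lower and Pitpnm2 higher, beside 11.5% of 13109 genes tested (4.86% lower and 6.61% higher). In KD against 36N, Fam3b failed the filter and Dip2c passed it only through KD. Of the other 8, 3 passed the threshold, Zxdb, Zfp575 and Ppp1r3e, all higher in KD, beside 3.24% of 13118 genes (2.03% higher). The 36S libraries of the first comparison and the 36N libraries of the second also served to choose the genes, for a large difference between them, so these counts are partly fixed by the choice and nothing is read from their height above the background. Untreated KD marrow also differed in marker genes: the summed level of 10 monocyte and macrophage genes was 86522 to 139245 in KD, 49573 to 54893 in 36N and 39940 to 44943 in 36S. That of 10 neutrophil genes was 32257 to 44222 in KD, 41929 to 48182 in 36N and 57884 to 189393 in 36S. That of 11 T and NK cell genes was 316 to 1227 in KD, 241 to 327 in 36N and 156 to 286 in 36S. That of 9 B and plasma cell genes was 6148 to 6706 in KD, 6429 to 11046 in 36N and 7641 to 11921 in 36S. For 8 stroma and endothelium genes it was 3157 to 3782 in KD, 2921 to 3097 in 36N and 2220 to 2405 in 36S. The summed levels of erythroid genes and of megakaryocyte and platelet genes overlapped between these groups. That of the 7 listed mast cell, basophil and eosinophil genes was 3155 to 4989 in KD, 402 to 1097 in 36N and 892 to 1367 in 36S. Genes of this last list did not all move alike. Cpa3 had 1223 to 1452 in KD and 142 to 314 in 36S, whereas Mcpt8 had 35.0 to 57.3 in KD and 61.9 to 92.1 in 36S. The part of these shifts in the values of the 10 genes was not tested.

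With TMZ, the 36N and 36S libraries of their shared table overlapped for 8 of the 10 genes. Dip2c had 277, 269 and 267 normalized counts in 36N with TMZ, against 265, 177 and 167 in 36S with TMZ. Nln had 1055, 819 and 912 in 36N, against 815, 806 and 710.4 in 36S. In both genes every 36N library lay above every 36S library by a narrow margin, the reverse of their order before TMZ, with log2 fold changes of 0.45 (SE 0.25) and 0.25 (SE 0.17). Of all 14246 genes tested in that table, 4.76% had groups without overlap (2.90% higher in 36N) and 0.00% passed an adjusted p of 0.05 by limma-trend, in a test that did not pair the libraries, while 1.34% had an unadjusted p under 0.05, and in limma without a mean-variance trend 0 genes passed either, with 253 at an unadjusted p under 0.05.

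Zfp575 had 44.0, 27.0 and 50.4 in 36N with TMZ, against 35.3, 43.8 and 62.6 in 36S with TMZ. Pard6b had 60.9, 37.8 and 39.9 in 36N, against 44.9, 56.7 and 55.9 in 36S. Fam3b had 64.7, 91.2 and 105 in 36N, against 67.0, 75.9 and 118 in 36S. In each of these genes the ranges of the genotypes overlapped. Bhlhb9 had 228, 341 and 204 in 36N, against 278, 363 and 172 in 36S. Pitpnm2 had 847, 1099.9 and 772 in 36N, against 929, 1086 and 794 in 36S. In Bhlhb9 and Pitpnm2 library 5 was the highest of 36N and library 2 the highest of 36S, and these are the 2 libraries with Ddx3y at 0. Zxdb had 248, 298 and 287 in 36N, against 237, 332 and 209 in 36S, with the same 2 libraries highest. Ak3 had 1046 to 1224 in 36N and 1052 to 1067 in 36S, and Ppp1r3e had 105 to 108 in 36N and 99.4 to 117 in 36S. Without the 2 libraries low in Y-linked genes, the log2 fold changes of the 10 genes lay between -0.10 for Fam3b and 0.37 for Dip2c and Nln, against -0.23 for Zfp575 and 0.45 for Dip2c with them.

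**Figure D3:**
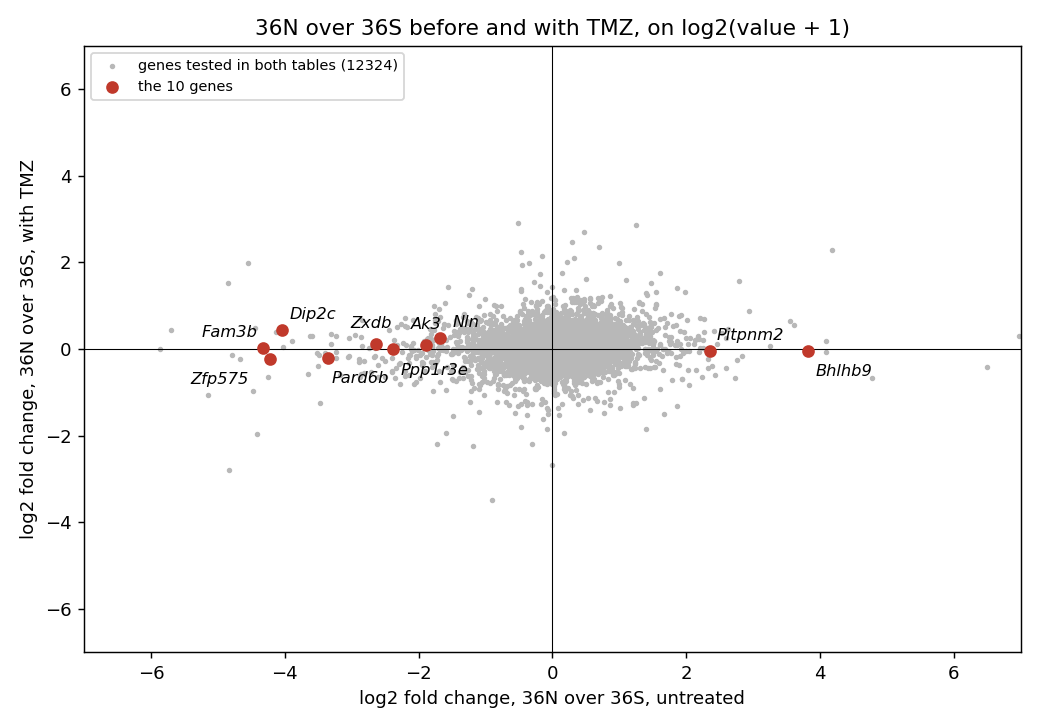
Log2 fold change of 36N over 36S untreated (x axis) and with TMZ (y axis), on log2(normalized count + 1), for 12324 genes tested in both tables (grey) and the 10 genes (red). The 10 genes span -4.32 to 3.83 on the x axis and -0.23 to 0.45 on the y axis, and the grey points are also wider along x than along y.

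The flattening with TMZ was common among genes that differed before it. Untreated, 363 genes passed an adjusted p of 0.05 and a 2-fold difference between 36N and 36S, and 309 of them were tested with TMZ. Of these, 291 (94.2%) differed by less than 2-fold with TMZ, beside 97.6% of all genes tested there. An absolute log2 fold change with TMZ of at most 0.45, the highest among the 10 genes, was seen in 230 of the 309 (74.4%). The share of all genes within this limit was not computed, so nothing is read from the 74.4%. The median absolute log2 fold change with TMZ was 0.26 over the 309 genes and 0.14 over all genes tested.

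Within 36N, TMZ and untreated libraries shared a table. Between them 10037 of 14390 genes (69.7%) passed an adjusted p of 0.05 by limma-trend and 74.5% had groups without overlap (38.7% higher and 35.8% lower with TMZ), so that such a change sets no gene apart. Among the 10 genes, 8 were higher with TMZ and 1, Zxdb, lower without overlap. Dip2c had 175, 172 and 172 normalized counts with TMZ, against 12.995, 10.9 and 16.6 untreated, a log2 fold change of 3.60 (SE 0.28). Fam3b had 40.4, 57.4 and 67.2 with TMZ, against 4.44, 3.90 and 1.64 untreated (3.73, SE 0.42). Ak3 had 664, 618 and 579 with TMZ, against 86.0, 67.3 and 58.6 untreated (3.13, SE 0.21). These 3 genes, all low in untreated 36N, had the largest increases of the 10. Both groups also served to choose the genes, so that such increases are partly fixed by the choice. Fam3b passed the filter here only through its TMZ libraries. Ppp1r3e, Pitpnm2, Nln, Pard6b and Bhlhb9 were higher by 1.92, 1.60, 1.55, 0.90 and 0.58 on the log2 scale. Zxdb had 155, 188 and 183 with TMZ, against 320.0, 272 and 236 untreated (-0.65, SE 0.20). Zfp575, with 32.1, 19.8 and 37.5 with TMZ against 18.8, 24.3 and 16.9 untreated, overlapped.

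No table used here holds 36S with and without TMZ together. The same library had a value in 2 tables that differed by a factor for the gene, which was the same in all 3 shared 36N libraries up to a library factor with a log2 range of 0.0076 (untreated table over the 36N table) and 0.029 (36N table over the TMZ table). With these factors the TMZ levels of both genotypes were set on the scale of the untreated table, as a description that assumes that the factor holds in 36S as it does in 36N. That 36N and 36S lie close with TMZ is what the genes were chosen for, but the choice did not fix where that level lies. Zxdb averaged 114 ± 11.5 in 36N with TMZ and 179 ± 27.6 in untreated 36N, while it averaged 106 ± 26.4 in 36S with TMZ and 1111 ± 74.7 in untreated 36S (SD, n = 3 each). Zfp575 averaged 22.4 ± 6.82 in 36N with TMZ and 15.1 ± 2.91 in untreated 36N, while it averaged 26.2 ± 7.75 in 36S with TMZ and 307 ± 105 in untreated 36S. In both zinc finger genes the level with TMZ lay near that of untreated 36N, and 36S with TMZ was 10.5 and 11.7 times below untreated 36S.

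Bhlhb9 and Pitpnm2, which were high in untreated 36N, also stood nearer to untreated 36N than to untreated 36S with TMZ. Bhlhb9 averaged 71.6 ± 20.2 in 36N with TMZ and 47.0 ± 8.30 in untreated 36N, while it averaged 75.3 ± 26.6 in 36S with TMZ and 2.45 ± 1.09 in untreated 36S, a ratio of 30.7 in 36S. Pitpnm2 averaged 486 ± 91.1 in 36N with TMZ and 159.6 ± 23.8 in untreated 36N, while it averaged 502 ± 78.4 in 36S with TMZ and 30.8 ± 7.86 in untreated 36S, a ratio of 3.04 in 36N and 16.3 in 36S. Pard6b stood nearer to untreated 36N too, at 19.6 ± 5.24 in 36N with TMZ, 9.97 ± 1.09 in untreated 36N, 22.3 ± 2.80 in 36S with TMZ and 110.5 ± 7.23 in untreated 36S.

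Dip2c, Fam3b, Nln and Ppp1r3e stood nearer to untreated 36S. Dip2c averaged 102 ± 0.987 in 36N with TMZ and 7.94 ± 1.65 in untreated 36N, while it averaged 76.2 ± 20.4 in 36S with TMZ and 145 ± 14.0 in untreated 36S. Fam3b was 16.5 times its untreated level in 36N with TMZ and 0.562 times in 36S. Nln was 2.86 times its untreated level in 36N with TMZ and 0.769 times in 36S, and Ppp1r3e 3.90 times and 0.707 times. Ak3 exceeded all untreated groups, at 383 ± 26.2 in 36N with TMZ, 43.7 ± 8.74 in untreated 36N, 359 ± 2.76 in 36S with TMZ and 163 ± 8.03 in untreated 36S. So did Pitpnm2, at 418 to 589 in 36N with TMZ and 426 to 582 in 36S with TMZ, against at most 237 in untreated libraries. Bhlhb9 exceeded them in 36N with TMZ, at 57.3 to 94.7 against at most 52.0 in untreated libraries. In 36S with TMZ, at 47.9 to 101, it exceeded them by its mean only. In 36S, on this scale, TMZ libraries lay below untreated ones without overlap in 7 genes and above them in Ak3, Pitpnm2 and Bhlhb9. Of 12676 genes set on it in the same way and passing the filter, 69.0% did not overlap in 36S (34.2% lower and 34.8% higher with TMZ), so that such a change sets no gene apart there either.

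**Figure D4:**
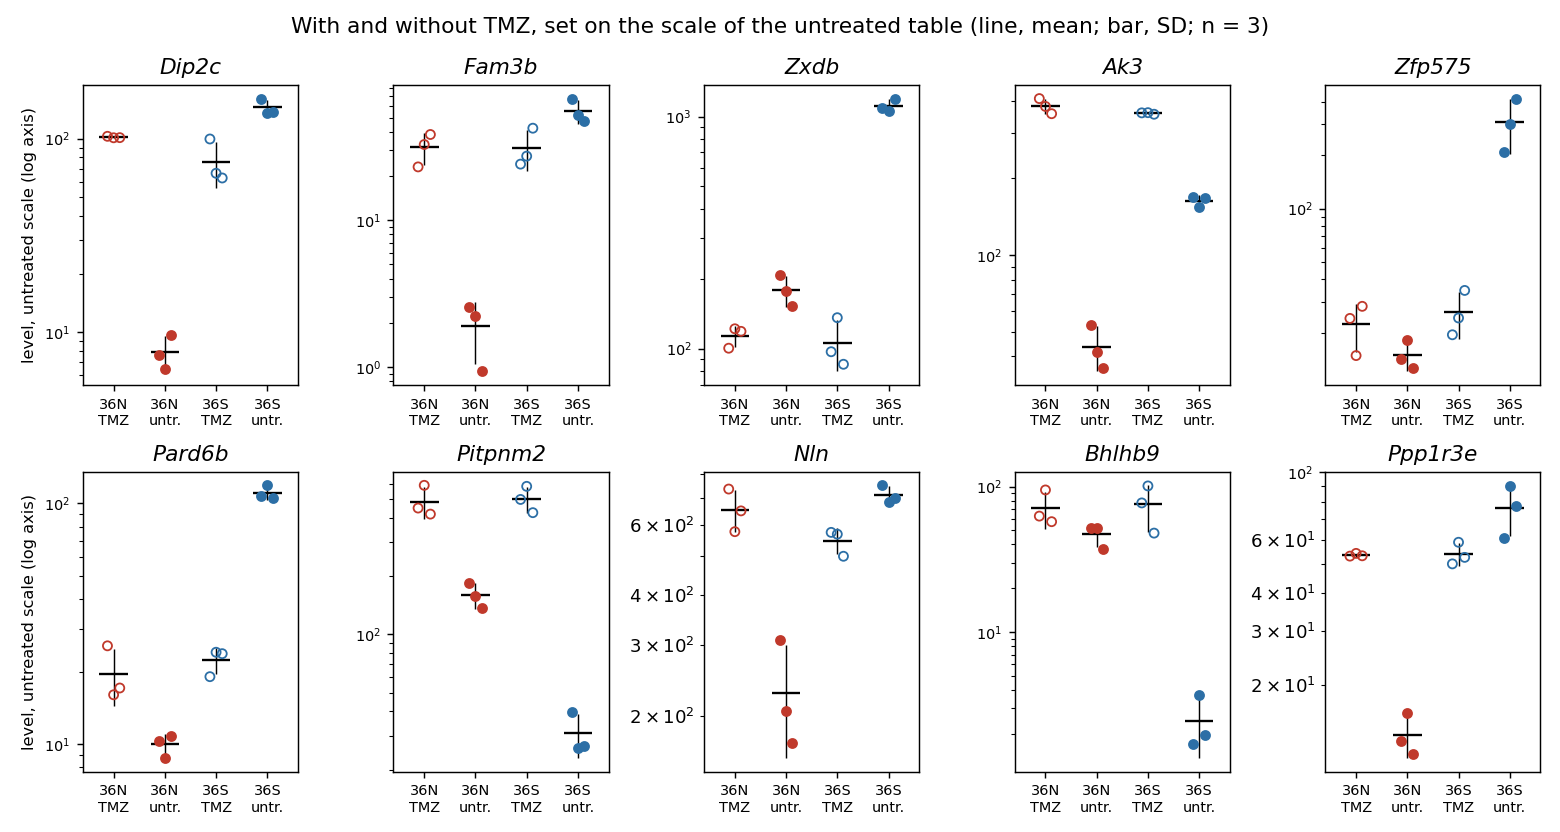
Level of each gene (log axis) in 36N with TMZ, untreated 36N, 36S with TMZ and untreated 36S, set on the scale of the untreated table, with open marks for TMZ, filled marks for untreated, the mean as a line and the SD as a bar. The 2 TMZ groups sit at one height in most panels, for Zxdb at 114 and 106, beside 179 in untreated 36N and 1111 in untreated 36S.

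The 10 genes lie on 8 chromosomes (mm10, GENCODE M21): Dip2c (chr13:9276528-9668928) and Nln (chr13:104023057-104109614) on chromosome 13, Zxdb (chrX:94724569-94730187) and Bhlhb9 (chrX:135797594-135891081) on the X, and Fam3b (chr16:97470965-97514816), Ak3 (chr19:29020833-29047961), Zfp575 (chr7:24583838-24587641), Pard6b (chr2:168081004-168101203), Pitpnm2 (chr5:124118690-124249760) and Ppp1r3e (chr14:54872669-54877550) on 1 each. Of the 20 nearest listed genes, 1 on each side, 15 were tested in 36N against 36S and 2 passed (13.3%, beside 4.56% of all genes), with a median log2 fold change of -0.18. Gspt2, an X-linked translation termination factor gene 81.3 kb from Zxdb, averaged 36.5 in 36N and 131 in 36S (-1.80, SE 0.22, adjusted p 0.0033 by limma-trend), with 119 in KD. Erbin, a scaffold protein gene 103 kb from Nln, averaged 4037 in 36N and 7190 in 36S (-0.87, SE 0.20, adjusted p 0.040). Mx1, an interferon-induced gene beside Fam3b, lay on the other side of 0, with 325 ± 181 in 36N and 114 ± 25.4 in 36S (1.39, SE 0.34, adjusted p 0.054), and in KD against 36S it passed (1.44, SE 0.25, adjusted p 0.0059). In KD against 36S, 16 neighbours were tested, and Mx1, Erbin and Phldb3 beside Zfp575 (-0.52, adjusted p 0.044) passed. The pseudogene Gm10136 beside Ak3 averaged 32.1 in KD and 0.685 in 36S (4.17). Gm10136 passed the filter only through KD, where it was high, so it is given without a p and is not counted. The closest neighbours tested passed in neither comparison: Arl6ip4 and Mphosph9, 0.49 and 1.2 kb from Pitpnm2, and Homez, 1.7 kb from Ppp1r3e. With so few neighbours tested, nothing is read from how many of them passed.

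**Figure D5:**
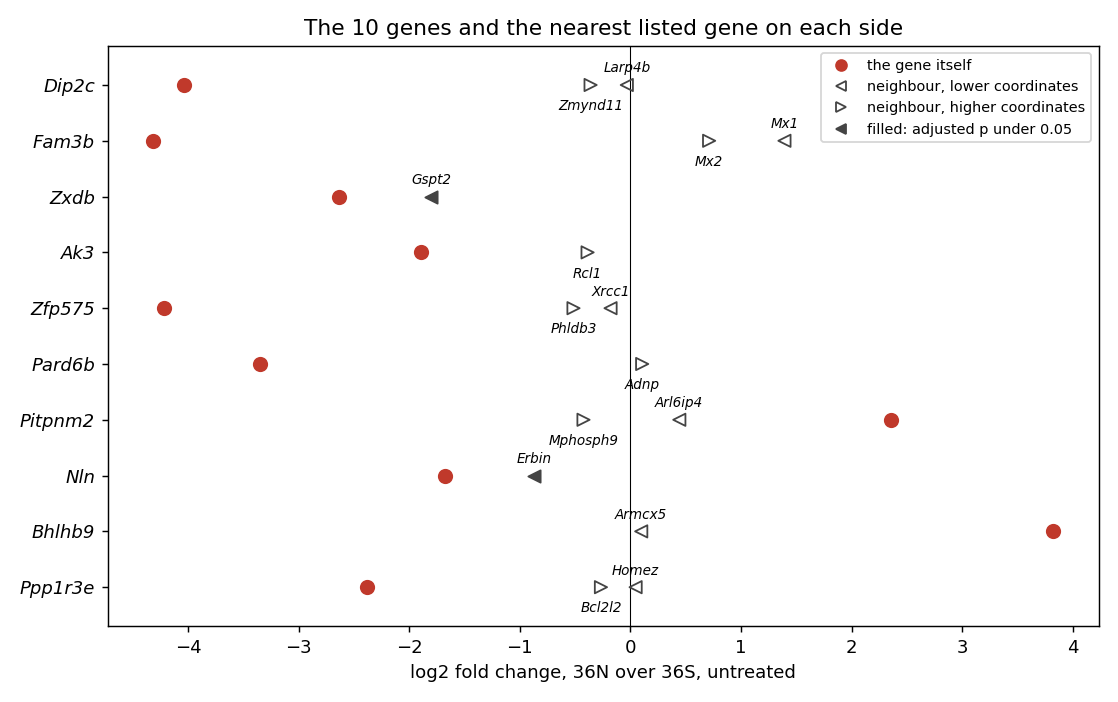
Log2 fold change of untreated 36N over 36S for each of the 10 genes (circles) and for its nearest listed neighbours that were tested (triangles, pointing to the side on which they lie). Only Gspt2 beside Zxdb, at -1.80, and Erbin beside Nln, at -0.87, are filled as past an adjusted p of 0.05.

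Of 82 relatives and partners of the 10 genes, in 9 families and pathways, 68 were tested between untreated 36N and 36S and 2 passed (2.94%, beside 4.56% of all genes, so that the share does not set them apart): the peptidase gene Ace averaged 221 ± 42.6 in 36N and 41.2 ± 10.99 in 36S (2.41, SE 0.27, adjusted p 0.0020 by limma-trend), and the atypical protein kinase C gene Prkci, whose product binds PAR6 proteins, averaged 391 ± 15.4 in 36N and 564 ± 20.3 in 36S (-0.53, SE 0.12, adjusted p 0.037). In KD against 36S, 9 of 67 passed (13.4%, beside 11.5% of all genes, so that this share does not set them apart either), 4 higher and 5 lower. Among them were the glycogen branching enzyme gene Gbe1, at 346 ± 35.8 in KD and 1026 ± 174 in 36S (-1.56, adjusted p 0.00049), the phosphorylase kinase subunit gene Phkb (-0.82, adjusted p 0.0051), and the neurolysin relative Thop1, at 195 ± 30.2 in KD and 442 ± 60.5 in 36S (-1.18, adjusted p 0.0035). Ace (1.45, adjusted p 0.015), the nucleotide kinase gene Cmpk2 (1.29, adjusted p 0.0057), Gyg (0.59, adjusted p 0.023) and Pygl (0.50, adjusted p 0.025), of glycogen priming and breakdown, were higher in KD. Armcx1 of the family of Bhlhb9 (-1.32, adjusted p 0.040) and the polarity scaffold Dlg1 (-0.49, adjusted p 0.046) were lower. In KD against 36N, 1 of 68 passed (1.47%, beside 3.24% of all genes), which was Gbe1 (-0.94, adjusted p 0.015). Between 36N and 36S with TMZ 0 of 72 passed, beside 0.00% of all genes. In 36N with TMZ against untreated 54 of 72 passed (75.0%, beside 69.7% of all genes), 32 higher and 22 lower.

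Over the 9 untreated libraries the 10 genes fell into courses that other genes shared, by Pearson's r of log2(normalized count + 1) with 11081 other genes that had a mean of at least 50 in a group. These correlations describe 3 groups of libraries and carry no test. The zinc finger gene Zfp575 was most like Patj (r = 0.992), a tight junction scaffold gene with means of 36.6 in 36N, 386 in KD and 287 in 36S. Ppp1r3e was most like Scarf2 (0.988) and Gspt2 (0.987). Pard6b was most like Ogfrl1 (0.981) and Rnf17 (0.980), and Rnf17, a germ cell Tudor domain gene, averaged 1.24 in 36N, 0.790 in KD and 97.2 in 36S. Fam3b was most like Cacna1f (0.984) and Scnn1a (0.981), both ion channel subunit genes, at 112 in 36N, 146 in KD and 604 in 36S for Scnn1a. Dip2c was most like 3830406C13Rik (0.982) and Ap5b1 (0.979), Zxdb like Lrp4 (0.973) and Gm49342 (0.967), Nln like Sdk1 (0.983), and Ak3 like Kcnip3 (0.966) and Pfkfb3 (0.955). Of the genes that were high in 36N, Pitpnm2 was most like Klrk1, which encodes the NKG2D receptor of NK and T cells, and Skida1 (both 0.983), and Bhlhb9 like Mbd2 (0.980) and Syn1 (0.979). Among the 10 genes themselves, Dip2c and Zxdb ran together (0.982) and Pard6b ran opposite to Bhlhb9 (-0.985). The untreated 36N and 36S libraries also served to choose the genes, so these correlations are partly fixed by the choice.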

How the data were processed

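Poly(A) RNA sequencing of total leukemic marrow gave 15 libraries. The deposited values are a signal per gene, that is, counts that the authors normalized between libraries, with Salmon and DESeq2 and the build mm10 per the submitters' processing notes, without versions or roles. The 4 tables were normalized separately except those of untreated 36N and KD, whose 36S columns were identical. Column totals were (in units of 1e6) 11.3 to 13.03 untreated, 15.7 to 18.3 for 36N with and without TMZ and 22.3 to 24.3 with TMZ, but the read depth behind them is unknown. Groups followed the sample labels.

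Values were analysed as log2(normalized count + 1) with limma-trend (limma 3.58.1, R 4.3.3) on the libraries compared, for genes with at least 10 in at least 3 of them, with Benjamini-Hochberg adjustment over all genes tested and a threshold of 0.05. A fold change on this scale understates the change of low genes. The fit was tested on simulated data. The members, the lists of relatives and the marker lists were chosen with earlier results of these data known. Named besides the members were relatives past the threshold, the nearest listed neighbour on each side (GENCODE M21, symbols matched for 17785 genes) and the 2 genes most like each member, of which some are not reported here. Alternatives were other pseudocounts (0.5 and 5), a filter of 50 or none, equal column totals, no trend, leaving out each library, the replicate block, and, chosen after seeing the data, leaving out 2 TMZ libraries.

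Same-numbered 36N libraries with and without TMZ had deviations from their group means that correlated at 0.019, 0.0371 and 0.0858, and they were treated as unpaired.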

Additional observations from a re-analysis of the deposited data

Results flagged for a closer look

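In 3 of the 8 genes counted, the differences of KD and of 36N from the same 36S libraries differed from each other. This is by KD against 36N (limma-trend, Benjamini-Hochberg over 13118 genes), where 3.24% of all genes passed (2.03% higher in KD). The untreated 36N values in this comparison also served to choose the genes. These 3 genes and Dip2c had been chosen as low in 36N, so that a higher level in KD is partly fixed by the choice. The zinc finger gene Zfp575 differed by a log2 fold change of 4.90, Zxdb by 1.92 and Ppp1r3e, the glycogen subunit of protein phosphatase 1, by 2.04, with adjusted p-values of 5.6e-05, 0.00021 and 0.011. Dip2c of the disco-interacting protein family differed by 3.33, given without a p and not counted because it passed the filter on low values only through KD. In each gene all 3 KD libraries were above every 36N library.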

How the results depend on the processing

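In KD against 36S and KD against 36N, 1 result on the 10 genes changed direction under the alternatives tried, that of Pard6b in KD against 36N, which did not pass under any of them (-0.08, and -0.17 to 0.065 with 1 library left out, 0.065 without KD library 8). For KD against 36S, 110 gene results kept their side of the threshold, 7 lost it, all of them Dip2c, and 1 gained it, Zfp575 without KD library 7. For KD against 36N, 100 others kept it, 1 lost it, Ppp1r3e without KD library 9, and 2 gained it, both Nln. These results include Fam3b, Pard6b and Bhlhb9 in KD against 36S and Dip2c in KD against 36N. Those genes passed the filter only through their high group, so nothing is read from how many results kept their side. Leaving out 1 library gave 4 to 5 of the 7 genes counted past the threshold in KD against 36S and 2 to 4 of 8 in KD against 36N.

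Counts over all genes moved more. For 36N against 36S untreated, 599 genes passed, 305 without a trend and 218 to 558 with 1 library left out (218 without 36S library 2, 294 without 36N library 5, 375 without 36N library 6 and 390 without 36N library 4). For KD against 36S, 1503 passed, and 639 to 2062 with 1 library left out (639 without 36S library 2 and 645 without KD library 9). For KD against 36N, 425 passed, 203 without a trend and 138 to 2018 with 1 library left out (2018 without KD library 8, 138 without KD library 9, 186 without 36N library 5, 215 without 36N library 4 and 262 without KD library 7). For 36N against 36S with TMZ, 0 to 1 passed with 1 library left out, the 1 without 36S library 3. With the replicate block 9985 genes passed for TMZ against untreated in 36N, against 10037 without it. The causes were not tested.

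With equal column totals 39.3% of calls in KD against 36S were higher, against 57.6%, and 49.6% of those in KD against 36N, against 62.6%, as the median over all genes moved to -0.13 in both. A pseudocount of 5 brought the log2 fold change of 36N over 36S to -3.54 for Dip2c, -3.13 for Fam3b, -2.95 for Pard6b and 2.80 for Bhlhb9. The depth behind low values such as those of Fam3b in 36N is unknown, which limits their folds.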
